A study of Mus musculus with 18 samples.

Results

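NIH3T3 fibroblasts, an established mouse embryo cell line, were exposed to 2 kinds of protein-folding stress, and their transcriptomes were set directly against each other at the same labelled time. The comparison holds the 3 samples labelled HS 135 min and the 3 labelled Tu 135 min, 6 of the 18 samples of the series. Its groups are set by the labels, and the comparison was chosen with earlier results of these data known. Heat shock (HS) was a shift of the culture from 37°C to 42°C for 135 min. Tunicamycin (Tu) was added at 5 µM for 135 min at 37°C. The reference is 3 samples without either stress, labelled as controls from the start of the time course. No unstressed sample was labelled 135 min, so the reference is not matched in time to either group. Whether time in culture without stress changed any gene was not tested. Samples at 45 min of each stress are used where the difference is followed back in time. All cells carried a stably integrated fusion of an FKBP destabilizing domain (L106P) to superfolder GFP, were sorted for high GFP, and were kept with the stabilizing ligand Shield-1 in every condition used here. They are therefore a sorted, protein-overexpressing pool of an immortal line, and no source used here states that the 3 samples of a group came from separate cultures, so the p-values measure the spread between these samples, which may be technical. The RNA came from whole cultures, where fewer cells of a kind and less RNA per cell cannot be told apart.

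Heat unfolds proteins of the cytosol and nucleus and activates the transcription factor HSF1, which binds heat shock elements, arrays of inverted GAA units, and drives the heat shock response (HSR) of cytosolic HSP70, HSP110, HSP90, J-domain and small heat shock proteins. Tunicamycin inhibits the enzyme encoded by Dpagt1, the first step of N-glycan assembly, so that glycoproteins misfold inside the endoplasmic reticulum (ER) and the sensors IRE1, PERK and ATF6 start the ER unfolded protein response (erUPR). That program makes the ER chaperone BiP (Hspa5) and its partners and, through ATF4 and CHOP (Ddit3), genes shared with other stresses.

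The defining fibroblast genes were abundant in both groups. The summed level of 10 fibroblast markers, among them Col1a1, Col1a2 and Vim, was 47375 to 80009 normalised read counts scaled to library size (CPM) in the HS 135 min samples and 38385 to 50451 CPM in the Tu 135 min samples. Lum alone of them averaged less than 1 CPM in both groups. The epithelial, leukocyte, endothelial and muscle lists each summed to less than 2 CPM in every sample of both groups, and the adipocyte list to at most 3.05 CPM. Total counts were 54780828 to 62291185 reads in the HS 135 min samples and 33415592 to 48972510 in the Tu 135 min samples. Samples of a group also differed with the GC content of transcripts. The Spearman correlation, across genes, between transcript GC and a sample's deviation from its group mean was -0.66, 0.69 and -0.27 for HS 135 min replicates 1, 2 and 3, and 0.61, -0.56 and -0.52 for Tu 135 min. Calls with a GC offset are given beside the genes named by rule that lost their call with it, and as counts with the alternatives.

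The samples labelled Tu 135 min lay out of order with the other tunicamycin times, and every result below rests on those labels. Herpud1, an ER membrane protein of ER-associated degradation, had 127, 86.6 and 90.1 CPM at Tu 135 min, 266, 274 and 289 CPM at Tu 45 min and 1485, 1575 and 1603 CPM at Tu 405 min. The 3 samples labelled 135 min were thus below the 3 labelled 45 min and the 3 labelled 405 min without overlap. Hspa5 had 491, 421 and 333 CPM at Tu 135 min, below the 656, 683 and 735 CPM of the reference, and 955, 928 and 923 CPM at Tu 45 min. Of 29 ATF4 and CHOP targets tested, 20 were lower in all 3 samples labelled Tu 135 min than in all 3 labelled Tu 45 min, whereas 13% of all genes tested were so placed. Immediate-early genes went the other way. Of 28 tested, 16 were higher in all 3 samples labelled Tu 135 min than in all 3 labelled Tu 45 min, against 11.3% of all genes tested, and Egr1 had 689, 694 and 639 CPM at Tu 135 min but 136, 103 and 106 CPM at Tu 45 min. Whether the labels of these samples were exchanged was not tested. The labels were kept, and for named genes and for lists with at least 1 changed call or a turned median, the values with the samples labelled Tu 45 min in place of those labelled Tu 135 min are given. Medians that turned were those of the TRiC list (0.059 to -0.19), the mitochondrial list (0.31 to -8.1e-05) and the heat shock factors (-0.013 to 0.048), and others are given with their lists.

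**Figure D1:**
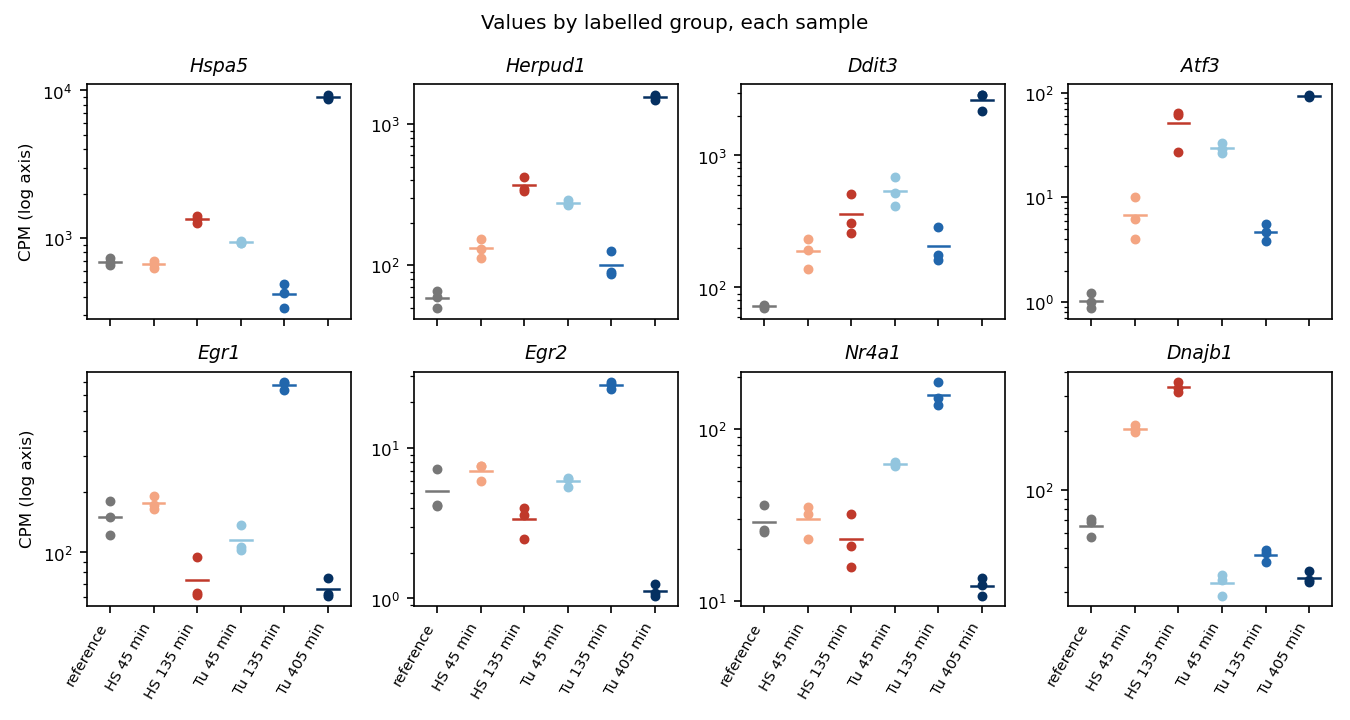
CPM on a log axis for 8 genes in the 6 labelled groups, with a point for each of the 3 samples of a group and a bar at their mean. Hspa5, Herpud1, Ddit3 and Atf3 were lower in the samples labelled Tu 135 min than in those labelled Tu 45 min and Tu 405 min, Egr1, Egr2 and Nr4a1 were highest there, and Dnajb1 was highest at HS 135 min (334 CPM on average).

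At 135 min both stresses differed from each other in 279 of 12731 genes tested. Called means a Benjamini-Hochberg adjusted p under 0.05 in edgeR's quasi-likelihood test of the 6 samples. In total 180 genes were higher under heat shock, 1.41% of those tested, and 99 were lower, 0.778%. At an unadjusted p under 0.05 there were 1404 higher and 1153 lower of the 12731, the background for list counts at that p below. The median log2 fold change of all genes was -0.0045, with quartiles at -0.35 and 0.35. Among the called genes 172 were more than 2-fold higher and 95 more than 2-fold lower. The higher side held the extremes, with 33 genes over 8-fold against 3 on the lower side.

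**Figure D2:**
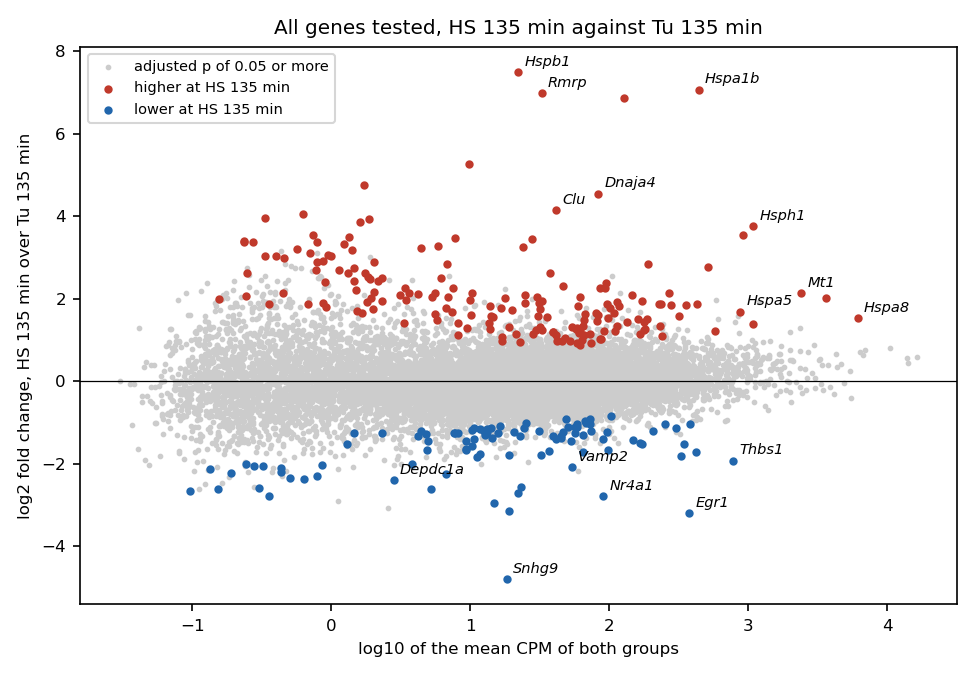
Log2 fold change of HS 135 min over Tu 135 min for each of 12731 genes against the log10 of its mean CPM in both groups. The 180 genes called higher (red) reach 7.49 (Hspb1) and the 99 called lower (blue) reach -4.78 (Snhg9), and grey genes had an adjusted p of 0.05 or more.

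The position of the reference, which was labelled as the start of the time course and not as 135 min, was then added. All 3 HS 135 min samples lay above all 3 reference samples for 169 of the 180 higher genes, a position that 18.1% of all genes tested held. All 3 Tu 135 min samples lay below the reference for 33 of the 180, against 13.6% of all genes, and above it for 30, against 13.7%. Of the 99 lower genes, 90 had HS 135 min below the reference, against 19% of all genes, and 33 had Tu 135 min above it. Since the calls used the same HS and Tu values, these counts describe the called genes and are not tests.

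The number of calls depended on single samples. In edgeR's test it fell to 0 in both directions without HS 135 min replicate 3, without Tu 135 min replicate 2 or without Tu 135 min replicate 3, where 1525, 1573 and 1649 genes had an unadjusted p under 0.05. Without Tu 135 min replicate 1 it was 2 higher and 0 lower, with 2571 at that p. DESeq2's Wald test of all 6 samples called 715 higher and 541 lower of the 12731 genes, the background for list counts by DESeq2 below. In edgeR's test the count without HS 135 min replicate 2 was 92 and 31, and without HS 135 min replicate 1 it was 303 and 87. In each of these 6 fits all 180 higher genes kept a positive log2 fold change and all 99 lower genes a negative value, each with an unadjusted p under 0.05. HS 135 min replicate 1 was the lowest of the 3 heat shock samples for 121 of the 180 higher genes. The share over all genes tested was not computed. Of the 55 called genes named by rule, 39 remained called in 2 of the 6 fits, 13 in 1 fit and 2 in none, and only Dnajb1 remained in 3. When libraries were scaled by total counts, the median of all genes moved to -0.18 and the split became 209 higher and 275 lower. With the samples labelled Tu 45 min as the comparison, 518 genes were higher (4.07%) and 432 lower (3.39%). These shares are the background for the list counts given below with those samples.

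Cytosolic HSP70 and HSP110 chaperones bind unfolded stretches of protein. Of 9 tested, 5 were higher under heat shock and none lower, with a median log2 fold change of 1.53 against -0.0045 for all genes. Hspa1b (chr17:35093374-35096183 in mm9), a stress-inducible HSP70, had 263, 1142 and 1214 CPM in HS 135 min replicates 1 to 3, 12.0, 3.88 and 3.53 CPM in the Tu 135 min samples and 6.3, 5.52 and 5.47 CPM in the reference. The heat shock samples were all above, although replicate 1 stood well below the other two, and Tu replicate 1 was the highest tunicamycin sample. This was a log2 fold change of 7.07 (SE 0.88, edgeR adjusted p = 0.0223), with a range of 6.76 to 7.88 as each sample was left out in turn. Its neighbour Hspa1a (chr17:35106304-35109101) had 74.6, 312 and 369 CPM against 3.51, 1.12 and 1.89 CPM, a log2 fold change of 6.86 (SE 0.80, edgeR adjusted p = 0.0191). The Hspa1a and Hspa1b transcripts are nearly identical in sequence, so the split of reads between them is uncertain. Hsph1, the HSP110 nucleotide exchange factor of HSP70, had 159, 235 and 211 CPM in the reference, 2717, 1242 and 2124 CPM at HS 135 min and 148, 148 and 151 CPM at Tu 135 min. Replicate 2 was the lowest heat shock sample for Hsph1, unlike for Hspa1a and Hspa1b, and the log2 fold change of 3.76 (SE 0.33, edgeR adjusted p = 0.0128) corresponded to 13.6-fold. The constitutive HSP70 Hspa8 had 9878, 8892 and 8562 CPM against 2925, 2951 and 3599.8 CPM, a log2 fold change of 1.53 (SE 0.22, edgeR adjusted p = 0.0319). Per transcript length Hspa8 remained the most abundant of these genes under heat shock, with a mean of 3272 RPKM, the read count per transcript length and depth, against 224 RPKM for Hspa1b and 450.4 RPKM for Hsph1. Hspa4l was the remaining called member, with 219, 96.0 and 164 CPM against 18.5, 35.1 and 38.2 CPM and a log2 fold change of 2.38. Hspa4, a close HSP110 relative, had a log2 fold change of -0.08 (edgeR adjusted p = 0.847). With total-count scaling edgeR called 4 of the 9 higher and none lower.

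**Figure D3:**
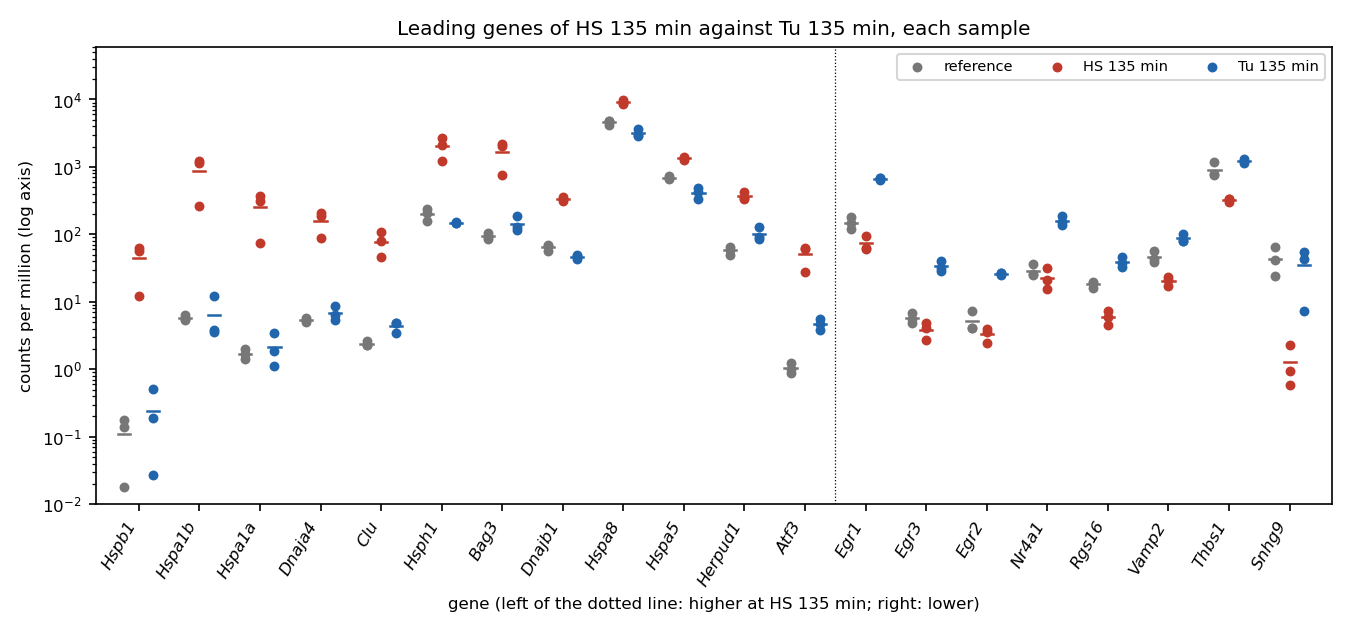
CPM on a log axis for 20 genes in the reference (grey), HS 135 min (red) and Tu 135 min (blue), with a point for each of the 3 samples and a bar at their mean. For the 12 genes left of the dotted line every red point lies above every blue point, for example 263 to 1214 against 3.53 to 12.0 CPM for Hspa1b, and for the 8 on the right every red point lies below, for example 61.8 to 95.2 against 639 to 694 CPM for Egr1.

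Among 10 cytosolic J-domain cochaperones, which pass clients to HSP70, 3 were higher and none lower. Dnajb1, an HSP40, was even across samples. It had 317, 332 and 353 CPM under heat shock, 42.6, 47.4 and 48.9 CPM under tunicamycin and 57.4, 70.5 and 68.3 CPM in the reference, so that the samples of each group stood close together and the tunicamycin samples below the reference. Its log2 fold change of 2.85 (SE 0.16, edgeR adjusted p = 0.00671) was the smallest p of all genes tested. Dnaja4 (chr9:54547366-54564119) had 87.7, 205 and 188 CPM against 8.73, 5.34 and 6.43 CPM, a log2 fold change of 4.55 (SE 0.41, edgeR adjusted p = 0.0128), and Dnaja1 had 416, 253 and 402 CPM against 100.3, 86.9 and 107 CPM, a log2 fold change of 1.87 (SE 0.24, edgeR adjusted p = 0.024). Dnajb5 had a log2 fold change of -1.01 (edgeR adjusted p = 0.0866).

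Of 11 small heat shock proteins and BAG cochaperones, 3 were higher and none lower. Hspb1, the small heat shock protein HSP27 (chr5:136363789-136365433), had the largest fold change of all genes tested. It was near absent in the reference (0.176, 0.0179 and 0.137 CPM) and at Tu 135 min (0.508, 0.187 and 0.0274 CPM), and had 12.1, 56.7 and 63.7 CPM at HS 135 min. The groups did not overlap, but the heat shock samples differed among themselves, and the log2 fold change of 7.49 (SE 1.03, edgeR adjusted p = 0.0276) ranged over 7.01 to 8.53 without single samples. Bag3, which couples HSP70 to small heat shock proteins in selective autophagy, had 770.1, 2206 and 2073 CPM against 189, 128 and 115 CPM, a log2 fold change of 3.55 (SE 0.46, edgeR adjusted p = 0.0251). Hspb8, the small heat shock protein that binds Bag3, had 277, 261 and 283 CPM against 66.3, 72.1 and 74.2 CPM, a log2 fold change of 1.95 (SE 0.15, edgeR adjusted p = 0.0128). The heat shock samples of Hspb8 averaged 273 ± 11.4 CPM (SD, n = 3), in contrast to the wide spread of Hspb1 and Bag3. Cryab, another small heat shock protein, was not called, with a log2 fold change of 1.07 (edgeR adjusted p = 0.069), and was called with the samples labelled Tu 45 min in place of those labelled Tu 135 min, at 1.56 (edgeR adjusted p = 0.0157).

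HSP90 and its cochaperones gave 4 genes higher and none lower of 17, with a median log2 fold change of 0.65. The called genes were cochaperones. St13, which binds HSP70, had 556, 712 and 752 CPM against 183, 178 and 192 CPM, a log2 fold change of 1.87 (SE 0.19, edgeR adjusted p = 0.0169). The HSP90 ATPase activators Ahsa1 and Ahsa2 had log2 fold changes of 1.60 (SE 0.18) and 1.63 (SE 0.17), with Ahsa2 at 101, 103 and 99.98 CPM against 29.1, 33.4 and 35.7 CPM. Stip1, the HSP70 and HSP90 organizing protein, had 1237, 1876 and 1557 CPM against 685, 549 and 545 CPM and a log2 fold change of 1.39 (SE 0.23, edgeR adjusted p = 0.0399). Of the chaperones themselves, Hsp90aa1 had 2009.97, 454 and 1327 CPM against 250.2, 593 and 411 CPM, with groups that overlapped (log2 fold change 1.60, edgeR adjusted p = 0.177). Hsp90ab1 did not overlap, at 9322, 8432 and 8333 CPM against 5245, 4743 and 5413 CPM, and had a log2 fold change of 0.76 with an edgeR adjusted p of 0.103, which became 0.95 and 0.0399 with the samples labelled Tu 45 min. With those samples 4 J-domain, 5 small heat shock protein and BAG, and 6 HSP90 list genes were higher, and none lower. Of the HSP70, J-domain, small heat shock protein and HSP90 lists together, 2 genes were lower at an unadjusted p under 0.05 in edgeR's test, and DESeq2 called 1 J-domain gene lower.

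In mitochondria the chaperonin pair was called and other members were not. Hspe1, the chaperonin 10 subunit, had 528, 543 and 612 CPM against 135, 142 and 191 CPM and a log2 fold change of 1.85 (SE 0.20, edgeR adjusted p = 0.0187). Hspd1, the chaperonin 60 subunit, had 924, 613 and 881 CPM against 362, 377 and 302 CPM and a log2 fold change of 1.22 (SE 0.22, edgeR adjusted p = 0.048). All 3 heat shock samples were above the tunicamycin samples for both. They were also above the reference for Hspe1, but overlapped it for Hspd1 (285, 633 and 645 CPM in the reference). The other 9 mitochondrial chaperones and proteases tested, and all 8 subunits of the cytosolic chaperonin TRiC, were not called in edgeR's test or by DESeq2. Cct6a alone of these had an unadjusted p under 0.05 in edgeR's test. With total-count scaling Hspd1 had a log2 fold change of 1.05 and an edgeR adjusted p of 0.069.

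Promoters of the called genes were searched for the elements that the responses are known by. Of the 180 higher genes 129 matched a RefSeq promoter by symbol, of the 99 lower genes 65, and of all genes tested 8714. In the 250 bases upstream of any listed start, searched on both strands, the 3-unit heat shock element GAANNTTCNNGAA was present in 3 of 129 higher genes (Hspd1, Hspe1 and Kctd18), 0 of 65 lower genes and 43 of all 8714 (0.493%). The shorter head-to-head pair GAANNTTC, which the 3-unit form contains, was in 14 of 129 higher, 8 of 65 lower and 6.17% of all, and the tail-to-tail pair TTCNNGAA in 14, 6 and 6.71%. The ER stress response element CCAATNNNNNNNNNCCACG was in 2 of 129 higher genes (Hspa5 and Creld2), 1 of 65 lower genes (Calr4) and 16 of all 8714 (0.184%). The amino acid response element TGATGNAA, bound by ATF4, was in 4 of 129 higher genes (Atf3, Fgf21, Herpud1 and Matn4), 4 of 65 lower genes and 2.51% of all. A match is a string of letters and not evidence of binding. The last 150 bases before the start of 4 leading genes follow, 5′ to 3′ on the gene's strand from RefSeq (GRCm38.p6), to set a mitochondrial, an HSP70, a small heat shock protein and an ER chaperone promoter side by side. Capitals mark the heat shock units in Hspe1 (chr1:55087998-55088147, plus strand), Hspa1b (chr17:34959239-34959388, minus strand) and Hspb1 (chr5:135887769-135887918, plus strand) and the ER stress response element in Hspa5 (chr2:34771940-34772089, plus strand).
Hspe1: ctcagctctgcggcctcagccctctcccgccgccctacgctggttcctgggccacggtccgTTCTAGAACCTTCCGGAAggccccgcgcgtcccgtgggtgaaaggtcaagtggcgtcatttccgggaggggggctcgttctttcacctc
Hspa1b: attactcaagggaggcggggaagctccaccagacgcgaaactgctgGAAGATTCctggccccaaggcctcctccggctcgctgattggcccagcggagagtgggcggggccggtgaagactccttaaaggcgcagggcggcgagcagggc
Hspb1: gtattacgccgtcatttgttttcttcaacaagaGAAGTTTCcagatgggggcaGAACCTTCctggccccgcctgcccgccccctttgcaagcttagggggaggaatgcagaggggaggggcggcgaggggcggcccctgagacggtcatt
Hspa5: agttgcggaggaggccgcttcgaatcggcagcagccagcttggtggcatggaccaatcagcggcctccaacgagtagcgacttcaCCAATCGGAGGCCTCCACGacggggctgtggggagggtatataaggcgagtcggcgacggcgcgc
In Hspe1, whose divergent neighbour Hspd1 has the same stretch in its own upstream window, 2 overlapping 3-unit matches begin at positions -89 and -84 from the start. In Hspa1b the pair begins at -104, in Hspb1 at -117 and -97, and in Hspa5 the ER element at -65.

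Chaperones and folding enzymes of the ER are the best known targets of the erUPR. Of 20 tested, 4 were called higher and none lower by edgeR and 8 and 0 by DESeq2, 15 had a positive and 0 a negative difference at an unadjusted p under 0.05, and the median log2 fold change was 0.73. Hspa5 (chr2:34627610-34632049), encoding BiP, had 1339, 1416 and 1269 CPM under heat shock, 491, 421 and 333 CPM under tunicamycin and 656, 683 and 735 CPM in the reference. The heat shock samples were above and the tunicamycin samples below the reference, and the log2 fold change of 1.69 (SE 0.21, edgeR adjusted p = 0.0223) held differences from the reference on both sides. Sdf2l1, an ER-resident partner of the ER J-domain proteins, had 69.0, 94.6 and 69.0 CPM against 21.3, 13.7 and 11.4 CPM and 31.7, 22.8 and 24.2 CPM in the reference, a log2 fold change of 2.33 (SE 0.30, edgeR adjusted p = 0.024). Manf, a secreted ER stress protein, had 277, 193 and 241 CPM against 72.6, 79.4 and 97.6 CPM, a log2 fold change of 1.51 (SE 0.21, edgeR adjusted p = 0.0286). Creld2 had 141, 139 and 105 CPM against 69.5, 47.6 and 48.9 CPM, a log2 fold change of 1.21 (SE 0.23, edgeR adjusted p = 0.0495) that was no longer called when any single sample was left out. Against the samples labelled Tu 45 min, Hspa5 had a log2 difference of 0.52 (edgeR adjusted p = 0.0825) and Creld2 of 0.82 (edgeR adjusted p = 0.0548), while Sdf2l1 and Manf stayed called at 1.5 and 1.16. With the same samples 3 of the 20 were higher and none lower, Pdia6 being the third. No fit without a single sample called more than 3 of the 20. At Tu 405 min Hspa5 had 9291, 8804 and 8937 CPM and Sdf2l1 805, 873 and 938 CPM.

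ER-associated degradation and the ER stress sensors gave 1 call together. Herpud1 was the single called gene of 15 in the degradation list, with 349, 422 and 334 CPM under heat shock against 127, 86.6 and 90.1 CPM, a log2 fold change of 1.87 (SE 0.22, edgeR adjusted p = 0.0191). Its level in the reference was 49.7, 59.4 and 66.1 CPM, so both stresses were above it. With the samples labelled Tu 45 min the log2 difference was 0.42 (edgeR adjusted p = 0.138), and the single called gene of the list was Syvn1, an ER ubiquitin ligase, at 1.17 (edgeR adjusted p = 0.0271). None of the 12 sensors and transcription factors was called by edgeR, where 3 were higher and 1 lower at an unadjusted p under 0.05, and DESeq2 called 1 higher. With the samples labelled Tu 45 min 1 of the 12, Creb3l1, was higher (1.35, edgeR adjusted p = 0.0372), and the list's median turned from 0.077 to -0.18. Ddit3, encoding CHOP, had 257, 513 and 309 CPM against 287, 175 and 161 CPM, with overlapping groups that were all above the 74.0, 69.4 and 72.2 CPM of the reference (log2 fold change 0.79, edgeR adjusted p = 0.256). The samples labelled Tu 45 min had 416, 520.3 and 689 CPM, and against them the sign of Ddit3 turned to -0.59 (edgeR adjusted p = 0.255). Xbp1, the substrate of IRE1, had 93.3, 50.9 and 67.1 CPM against 36.1, 44.6 and 40.8 CPM (log2 fold change 0.80, edgeR adjusted p = 0.145), and -0.01 against the samples labelled Tu 45 min. Atf4 had 1059.9, 1884 and 1346 CPM against 1116, 689 and 885 CPM, which overlapped (log2 fold change 0.67, edgeR adjusted p = 0.257).

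Of 29 targets of ATF4 and CHOP, 3 were higher under heat shock and none lower by edgeR (11 and 1 at an unadjusted p under 0.05, and 10 and 0 called by DESeq2), and 24 had a positive log2 fold change with a median of 0.36. Atf3, a stress-induced transcriptional repressor, had 27.4, 63.9 and 61.5 CPM against 5.52, 3.82 and 4.7 CPM and 1.23, 1.0 and 0.869 CPM in the reference. Both stresses were above the reference, and heat shock was above tunicamycin by a log2 fold change of 3.44 (SE 0.38, edgeR adjusted p = 0.0187). Fgf21, a secreted metabolic hormone, had 8.22, 19.1 and 15.2 CPM against 1.62, 1.2 and 0.985 CPM, a log2 fold change of 3.48 (SE 0.40, edgeR adjusted p = 0.0191). Gdf15, a stress cytokine of the TGF-beta family, had 1.3, 4.56 and 4.71 CPM against 0.266, 0.131 and 0.301 CPM, a log2 fold change of 3.93 (SE 0.62, edgeR adjusted p = 0.0386). With the samples labelled Tu 45 min Gdf15 stayed called at 2.45, whereas Atf3 was at 0.78 (edgeR adjusted p = 0.167) and Fgf21 at 1.09 (edgeR adjusted p = 0.0823), and 1 of the 29 targets was then higher and 3 lower, with a median that turned to -0.13. Other members were above the reference in both groups but not called, for example Trib3, a pseudokinase that binds ATF4, at 161, 317 and 214 CPM against 127, 87.6 and 82.6 CPM (log2 fold change 1.22, edgeR adjusted p = 0.0854). Its sign turned to -0.26 with the samples labelled Tu 45 min (edgeR adjusted p = 0.563). None of 20 cytosolic aminoacyl-tRNA synthetases was called by edgeR (2 higher at an unadjusted p under 0.05, and 1 called by DESeq2).

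**Figure D4:**
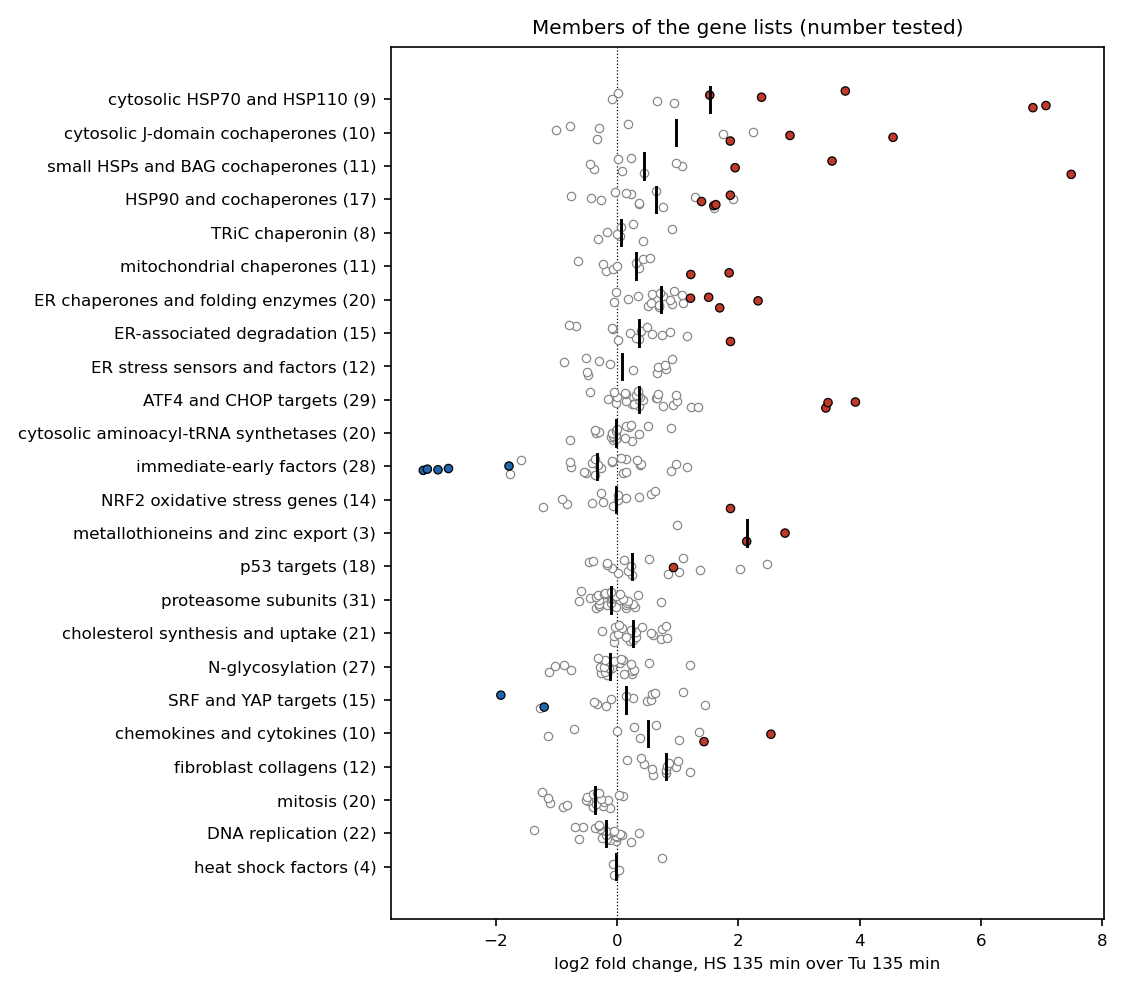
Log2 fold change of HS 135 min over Tu 135 min for the members of 24 gene lists, with the number tested in brackets. Filled points were called (red higher, blue lower) and open points were not. The short bar is each list's median and the dotted line the median of all genes (-0.0045). The cytosolic chaperones that were called stand to the right, and Egr1, Egr2, Egr3 and Nr4a1 of the immediate-early list to the left.

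Immediate-early genes, which growth factors and stress induce without new protein synthesis, made up most of the named list genes that were lower. Of 28 tested, 5 were lower under heat shock and none higher by edgeR (8 and 2 at an unadjusted p under 0.05, and 8 and 1 called by DESeq2), with a median log2 fold change of -0.33. Egr1 (chr18:35020861-35024610) had 61.8, 95.2 and 63.2 CPM under heat shock, 689, 694 and 639 CPM under tunicamycin and 179, 149.7 and 122 CPM in the reference. Heat shock was below and tunicamycin above the reference without overlap, a log2 fold change of -3.20 (SE 0.24, edgeR adjusted p = 0.0128). Its relatives followed the same order. Egr3 had 2.74, 4.79 and 4.08 CPM against 40.7, 32.1 and 28.8 CPM, a log2 fold change of -3.13 (SE 0.29, edgeR adjusted p = 0.0137), and Egr2 had 2.48, 4.01 and 3.59 CPM against 27.0, 26.5 and 24.7 CPM, a log2 fold change of -2.96 (SE 0.25, edgeR adjusted p = 0.0128). The orphan nuclear receptor Nr4a1 had 15.7, 32.1 and 20.9 CPM against 185, 137 and 151 CPM, a log2 fold change of -2.78 (SE 0.31, edgeR adjusted p = 0.0187), and its heat shock samples overlapped the reference (36.0, 25 and 25.7 CPM). Ier3 had 6.29, 11.7 and 7.51 CPM against 35.8, 29.4 and 22.5 CPM, a log2 fold change of -1.78 (SE 0.31, edgeR adjusted p = 0.0433). Fos was not called, at 1.41, 5.34 and 4.85 CPM against 6.56, 4.26 and 4.08 CPM (log2 fold change -0.36, edgeR adjusted p = 0.75), with both stresses above the 1.31, 1.02 and 1.08 CPM of the reference. In a fit with the samples labelled Tu 45 min its sign turned to 1.98 (edgeR adjusted p = 0.058), and Ier3 was at -0.96 (edgeR adjusted p = 0.0702). With those samples 1 of the 28 was higher and 3 were lower, and the list's median turned to 0.30. There the log2 difference was -0.65 for Egr1 (edgeR adjusted p = 0.12) and -0.84 for Egr2 (edgeR adjusted p = 0.0794), while Egr3 (-1.09) and Nr4a1 (-1.45) stayed called.

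Single genes of growth-factor, matrix and mechanical signalling were also lower under heat shock. Thbs1, the matricellular glycoprotein thrombospondin 1 (chr2:117937658-117952869), had 332, 338 and 302 CPM against 1151, 1290.3 and 1233 CPM and 1175, 799 and 764 CPM in the reference, a log2 fold change of -1.92 (SE 0.17, edgeR adjusted p = 0.0128) with tight groups. Cyr61, a target of YAP, had 103, 137 and 132 CPM against 282, 266 and 310.2 CPM, a log2 fold change of -1.20 (SE 0.18, edgeR adjusted p = 0.0361). These were the 2 called members of 15 SRF and YAP targets, both lower, while 8 of the 15 were positive and the list's median was 0.14. None was called higher by edgeR, and DESeq2 called 2 higher and 3 lower. Set against the samples labelled Tu 45 min, 1 was higher and 3 were lower. The list's median turned negative with total-count scaling, at -0.070. Rgs16, which speeds GTP hydrolysis by G proteins, had 4.49, 7.27 and 5.87 CPM against 45.9, 37.2 and 32.4 CPM, a log2 fold change of -2.71 (SE 0.27, edgeR adjusted p = 0.0169). Npas4, an activity-regulated transcription factor of neurons, had 2.4, 2.35 and 2.2 CPM against 9.94, 9.3 and 14 CPM, a log2 fold change of -2.25 (SE 0.25, edgeR adjusted p = 0.0187).

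The remaining genes with the largest lower values belonged to no list. Snhg9, a short host gene of a small nucleolar RNA (chr17:24856479-24856894), had 2.32, 0.931 and 0.58 CPM against 43.4, 55.5 and 7.39 CPM and 65.0, 24.4 and 42.3 CPM in the reference. The tunicamycin samples spread widely, with replicate 3 the lowest, and the log2 fold change of -4.78 (SE 0.89, edgeR adjusted p = 0.0495) ranged over -5.56 to -4.30 without single samples. Vamp2, a vesicle SNARE protein, had 23.7, 17.1 and 21.2 CPM against 100.3, 80.3 and 81.2 CPM, a log2 fold change of -2.08 (SE 0.21, edgeR adjusted p = 0.0169), and tunicamycin was above the 55.9, 42.9 and 39.6 CPM of the reference. Cd300lb, an immunoglobulin-like receptor described in myeloid cells, had 8.92, 4.87 and 6.35 CPM against 32.6, 43.9 and 42.6 CPM, a log2 fold change of -2.56 (SE 0.29, edgeR adjusted p = 0.0187). The Wnt receptor gene Fzd6 had 1.96, 0.842 and 1.62 CPM against 5.47, 11.4 and 10.1 CPM and 5.6, 9.61 and 8.53 CPM in the reference, so that heat shock stood below both, and the log2 fold change was -2.60 (edgeR adjusted p = 0.0399). The mitotic gene Depdc1a had 1.01, 1.09 and 0.598 CPM against 4.96, 4.84 and 4.35 CPM, a log2 fold change of -2.39 (SE 0.31, edgeR adjusted p = 0.024), which was not called after the GC adjustment (log2 fold change -1.89, edgeR adjusted p = 0.071). The others were Tbc1d9, a GTPase-activating protein for Rab proteins (-2.29), the kainate receptor subunit Grik3 (-2.01) and the cytochrome Cyb561d1 (-2.01), of which Grik3 was at -0.56 against the samples labelled Tu 45 min (edgeR adjusted p = 0.333).

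Several of the genes with the largest higher values were not chaperones of the cytosol. Clusterin (Clu, chr14:66587320-66600382), an extracellular chaperone, had 46.1, 109.5 and 78.5 CPM against 4.86, 3.43 and 4.9 CPM and 2.28, 2.3 and 2.65 CPM in the reference, a log2 fold change of 4.15 (SE 0.38, edgeR adjusted p = 0.013). Rmrp and Rpph1, the RNA components of RNase MRP and RNase P, are made by RNA polymerase III and carry no long poly(A) tail. Rmrp had 5.71, 69.6 and 119 CPM against 0.847, 0.187 and 0.52 CPM, and Rpph1 had 2.48, 19.2 and 35.3 CPM against 0.605, 0.375 and 0.492 CPM. In both, HS 135 min replicate 1 was far below replicates 2 and 3, and the log2 fold changes of 6.98 (SE 1.24) and 5.27 (SE 0.96) had the largest and the third largest error of the genes named by rule. Rmrp, Rpph1 and Snhg9 had no GC value and were left out of the GC-adjusted fit. Low-level genes with non-overlapping groups followed. Wnt1, a secreted Wnt ligand, had 1.87, 3.99 and 4.04 CPM against 0.0726, 0.169 and 0.109 CPM, a log2 fold change of 4.76 (SE 0.49, edgeR adjusted p = 0.0176). The ATP-gated channel gene P2rx7 had 1.39, 3.43 and 4.18 CPM against 0.145, 0.244 and 0.219 CPM, a log2 fold change of 3.86 (SE 0.51, edgeR adjusted p = 0.0256). The chloride channel gene Best2, the axonemal dynein gene Dnahc10 and the ephrin gene Efna2 had log2 fold changes of 4.05, 3.54 and 3.51, with means of at most 2.46 CPM under heat shock. In all, 54 of the 180 higher genes averaged under 1 CPM at Tu 135 min, and 49 of them also in the reference.

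Metal and oxidant response lists gave 3 calls, all higher under heat shock. The metallothioneins Mt1 and Mt2, which bind zinc and copper, were both called, of 3 genes tested in their list. Mt1 had 2937, 4824 and 4025 CPM against 1027, 678 and 974 CPM, a log2 fold change of 2.14 (SE 0.29, edgeR adjusted p = 0.0262), and Mt2 had 525, 1061 and 1076 CPM against 166, 113 and 111 CPM, a log2 fold change of 2.77 (SE 0.35, edgeR adjusted p = 0.0232). The zinc exporter gene Slc30a1 had a log2 fold change of 0.98 (edgeR adjusted p = 0.0541). Heme oxygenase 1 (Hmox1) was the single called gene of 14 NRF2 genes, of which 7 were positive and 7 negative, at 279, 572 and 449 CPM against 158, 100.4 and 101 CPM, a log2 fold change of 1.85 (SE 0.33, edgeR adjusted p = 0.0434). Nqo1, another NRF2 gene, had a log2 fold change of -1.22 (edgeR adjusted p = 0.38). The polyubiquitin gene Ubb was not called, at 163, 373 and 328 CPM against 192, 122 and 112 CPM with overlapping groups (log2 fold change 1.02, edgeR adjusted p = 0.179).

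Chemokine and p53 genes gave 3 further calls. Ccl2, a monocyte chemoattractant, had 213, 289 and 269 CPM against 115, 80 and 90.8 CPM, a log2 fold change of 1.43 (SE 0.21, edgeR adjusted p = 0.0349), which was not called after the GC adjustment (log2 fold change 1.70, edgeR adjusted p = 0.070). Cxcl10, an interferon-induced chemokine, had 2.88, 4.14 and 2.39 CPM against 0.774, 0.431 and 0.41 CPM, a log2 fold change of 2.54 (SE 0.38, edgeR adjusted p = 0.0356). They were 2 of 10 chemokines and cytokines tested, and edgeR called none lower (2 at an unadjusted p under 0.05, and 1 called by DESeq2), or 3 higher and 1 lower with the samples labelled Tu 45 min. Zmat3, an RNA-binding p53 target, was the single called gene of 18 p53 targets, at 96.9, 93.8 and 97.3 CPM against 48.7, 56.5 and 46.9 CPM, a log2 fold change of 0.92 (SE 0.16, edgeR adjusted p = 0.0431). It was not called in any fit without a single sample, nor with total-count scaling (log2 fold change 0.74, edgeR adjusted p = 0.071), where no p53 target was. There were 2 p53 targets higher and 1 lower with the samples labelled Tu 45 min. The cell cycle inhibitor gene Cdkn1a did not overlap between groups, at 182, 148 and 166 CPM against 83.9, 96.2 and 97.7 CPM, and just missed the threshold (log2 fold change 0.83, edgeR adjusted p = 0.0548), which it passed in DESeq2 (adjusted p = 0.0030) and with the samples labelled Tu 45 min (1.01, edgeR adjusted p = 0.0166). Mdm2, the ubiquitin ligase of p53, overlapped at 122, 82.0 and 102 CPM against 56.1, 95.2 and 106 CPM (edgeR adjusted p = 0.681).

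Other programs were not told apart by the test at this number of samples. The 31 proteasome subunits had no gene called by edgeR or DESeq2, none at an unadjusted p under 0.05 in either direction, and a median log2 fold change of -0.094. Psmb3 had 103, 143 and 118 CPM against 146, 132 and 111 CPM (log2 fold change -0.10, SE 0.20). All 3 HS 135 min samples were below the reference for 16 of the 31 subunits and all 3 Tu 135 min samples for 18, against 19% and 13.6% of all genes. None of 27 N-glycosylation genes was called by edgeR (2 higher and 2 lower at an unadjusted p under 0.05, and 1 called each way by DESeq2), and Dpagt1, whose product tunicamycin inhibits, had 39.5, 17.0 and 27.3 CPM against 17.0, 39.0 and 37.8 CPM with overlapping groups (log2 fold change -0.16, edgeR adjusted p = 0.88). None of 21 cholesterol genes was called by edgeR (3 higher at an unadjusted p under 0.05, and 2 called by DESeq2). Set against the samples labelled Tu 45 min, 1 of 27 N-glycosylation genes (Dpm3) and 2 of 21 cholesterol genes (Mvd and Dhcr7) were higher. Of all genes tested 4.07% were higher in that fit, so these few calls are not a result about either list. All 12 fibroblast collagens had a positive log2 fold change with a median of 0.81, 7 of them at an unadjusted p under 0.05, but none was called by edgeR and 2 were by DESeq2. EdgeR called 3 higher (Col3a1, Col5a1 and Col6a2) with the samples labelled Tu 45 min. Of 20 mitosis genes 18 were negative, with a median of -0.37, and of 22 DNA replication genes 18 were negative, with a median of -0.18. None of either was called by edgeR (3 and 1 lower at an unadjusted p under 0.05), and DESeq2 called 2 and 1 lower. Of all 12731 genes tested, 1153 were lower at that p in edgeR's test and DESeq2 called 541 lower. Of the heat shock factors, Hsf1 had 89.3, 169 and 139 CPM against 176, 116 and 119.5 CPM, which overlapped (log2 fold change -0.05, SE 0.29, and 0.23 with the samples labelled Tu 45 min), and none of the 4 genes in that list was called by edgeR or DESeq2 (1 higher at an unadjusted p under 0.05).

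The difference between the stresses was then set against the same difference in the samples labelled 45 min. An interaction term over the 12 samples tested whether the log2 difference HS minus Tu was greater or smaller at 135 min. Greater and smaller refer to the signed value. A smaller difference can thus be a wider gap, as for Egr1 (0.61 at 45 min and -3.20 at 135 min). The signed difference was greater for 235 genes (1.85%) and smaller for 153 (1.2%). Hspa1a, Hspa1b and Dnajb1 were not among them. Hspa1b had a log2 difference of 6.40 at 45 min and 7.07 at 135 min, a change of 0.67 (SE 1.03, edgeR adjusted p = 0.79), and Dnajb1 went from 2.62 to 2.85 (edgeR adjusted p = 0.59). In HS 45 min samples Hspa1b already had 280.3, 223 and 46.0 CPM. For other chaperones the difference was greater at 135 min. Hsph1 changed by 2.10 (SE 0.40, edgeR adjusted p = 0.021), from 504, 292 and 499 CPM at HS 45 min. Dnaja4 changed by 2.65 (SE 0.52, edgeR adjusted p = 0.025), Clu by 3.18 (SE 0.42, edgeR adjusted p = 0.0048) and Hspe1 by 1.96 (SE 0.31, edgeR adjusted p = 0.0093). For Hspe1 the HS 45 min samples, at 113, 143 and 197 CPM, overlapped the reference (121, 183 and 203 CPM).

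Among the largest changes of the difference were genes whose tunicamycin samples stood out of order along the labelled times. Cdh3, encoding P-cadherin, had the largest increase, 5.72 (SE 0.40, edgeR adjusted p = 0.000209), with 0.267, 0.261 and 0.174 CPM at HS 45 min and 1.25, 1.63 and 1.5 CPM at Tu 45 min, then 1.19, 2.04 and 1.83 CPM at HS 135 min and 0.194, 0.206 and 0.191 CPM at Tu 135 min. Between the labelled times the heat shock samples went up and the tunicamycin samples down, and the difference changed sign. With the samples labelled Tu 45 min in place of those labelled Tu 135 min, Cdh3 at HS 135 min was at 0.20 (edgeR adjusted p = 0.647). Atf3 changed by 5.57 (SE 0.55, edgeR adjusted p = 0.0011), Gdf15 by 4.88, Cxcl10 by 4.66 and Fgf21 by 4.52. On the other side Egr1 changed by -3.81 (SE 0.27, edgeR adjusted p = 0.000209), Egr3 by -3.78 and Egr2 by -3.18. Mycn, a MYC family transcription factor, changed by -3.50 (SE 0.49, edgeR adjusted p = 0.0056), from 5.52, 7.56 and 3.21 CPM at HS 45 min against 0.594, 0.913 and 0.974 CPM at Tu 45 min to 1.77, 2.48 and 2.11 CPM against 4.69, 3.37 and 2.9 CPM. At 135 min Mycn was not called (log2 fold change -0.79, edgeR adjusted p = 0.191), and its sign turned to 1.36 with the samples labelled Tu 45 min (edgeR adjusted p = 0.0355). The transcript 4922505G16Rik changed by -3.57. By list, 12 of the 29 ATF4 and CHOP targets and 5 of the 20 ER chaperones had a greater difference at 135 min and none a smaller. Of the 28 immediate-early genes 9 had a smaller difference and 1 a greater. Over all genes tested, 1.85% had a greater and 1.2% a smaller difference. In fits that left out single samples of the 4 groups, the counts ran from 87 (without Tu 45 min replicate 2) to 387 greater (without HS 45 min replicate 3) and from 29 to 350 smaller, with the lowest and highest counts at these same samples.

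**Figure D5:**
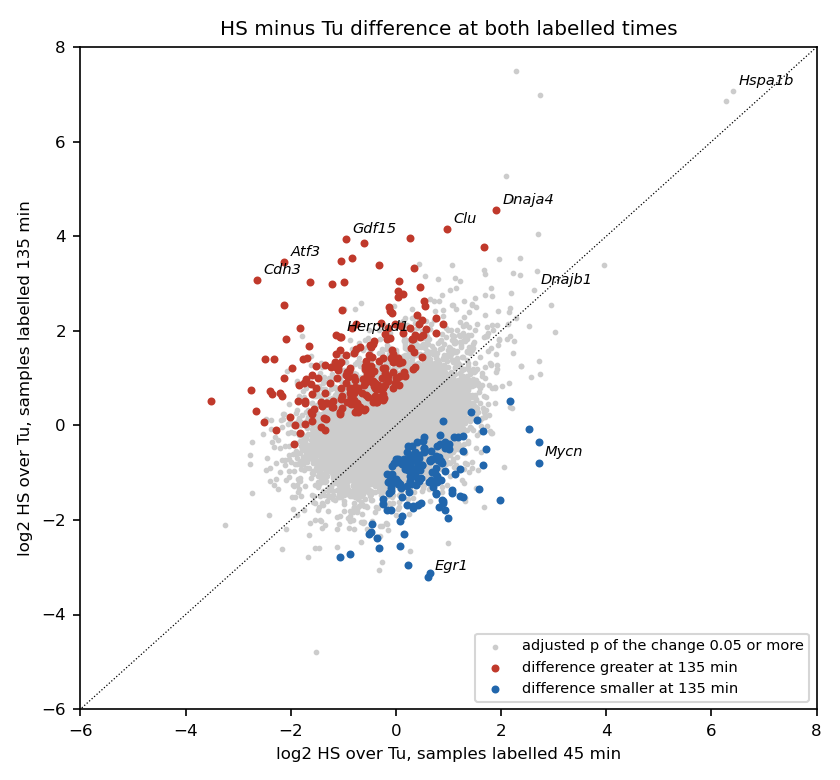
Log2 difference HS minus Tu in the samples labelled 135 min against that in the samples labelled 45 min, for 12731 genes, with the dotted line at equal values. Red genes (235) had a greater and blue genes (153) a smaller signed difference at 135 min by the interaction test. Cdh3 and Atf3 lie at negative 45 min and positive 135 min values, Egr1 the reverse, and Hspa1b near the line.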

How the data were processed

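Poly(A) RNA of 6 groups of 3 samples was sequenced by the authors on an Illumina HiSeq, from libraries made by 2 protocols, and which library had which is not given in the sources used here. Reads were aligned to mm9 and counted per RefSeq gene. The deposited file of each sample gives, per the file headers, a read count that is not always whole (an estimated count), an RPKM, a Z-score of the RPKM and an RMS-scaled RPKM. The authors tested genes with edgeR after removing genes with 0 reads.

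Here the deposited estimated counts were rounded to whole numbers and joined by gene name over 20207 genes, and 14 files listed genes in another order. RPKM, per the authors, is printed only where levels are compared between genes, and the deposited score (a Z-score) and signal (RPKM scaled by the authors by the root mean square) were not used. Counts are joined by name, so 741 genes whose coordinates differ between files keep 1 row, and mm9 positions are printed only for genes without such differences. Genes with at least 1 read in all 18 samples (12731) were scaled by TMM factors computed over the 18 samples, CPM values use the same factors, and HS 135 min was tested against Tu 135 min in a fit of those 6 samples by the quasi-likelihood test of edgeR 4.0.16 in R 4.3.3 with Benjamini-Hochberg adjustment. SE is the log2 fold change divided by the square root of F. The change from 45 to 135 min was an interaction term over 12 samples. A single-gene exact permutation test of 3 against 3 samples cannot go below p = 0.1. The scripts were tested on simulated independent counts with a fixed spread. That simulation lacked the GC and sample differences of these data, so it does not show how the test behaves in them. Total counts per sample were 33415592 to 66478268 reads, and PCR copies are not independent molecules. Replicates of a group differed by more than counting noise (chi-square per degree of freedom of at least 31.3 over 10257 genes), so none was a second deposit of another.

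Genes were named by rule: the 15 largest called in each direction with no overlap of CPM and at least 50 reads on average in the higher group, up to 4 called members per list by p, 16 fixed genes, and the 5 largest changes in each direction. Of these, 3 genes, and 2 of the lists, are not reported here. The comparison and the 26 gene lists were chosen with earlier results of these data known. Hspa4l, Ier3, Fos, Trib3, Hspa4, Dnajb5, Cryab, Hsp90aa1, Hsp90ab1, Cct6a, Slc30a1, Nqo1, Kctd18, Calr4, Matn4, Pdia6, Syvn1, Creb3l1, Dpm3, Mvd, Dhcr7, Col3a1, Col5a1 and Col6a2 were named outside the rule, after their values were seen. Alternatives were another filter or none, DESeq2 1.42.0 size factors or Wald test, total counts, TMM within the samples compared, the edgeR exact test, a shared fit, a replicate block, a lowess GC offset (12431 genes with a GC value), 1 surrogate variable (sva 3.50.0), a 2-fold minimum, and each sample left out. Promoters are from RefSeq (GRCm38.p6), and no coordinate was moved between builds.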

Additional observations from a re-analysis of the deposited data

Results flagged for a closer look

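All results here were picked because the difference HS minus Tu at 135 min departed from that at 45 min by the interaction test of edgeR (adjusted p under 0.05), as it did for 235 genes with a greater and 153 with a smaller difference. The values are the log2 change of the signed difference. All of them rest on samples labelled Tu 45 min and Tu 135 min, whose order along tunicamycin time is described above. Among the named genes with a greater difference, the cytosolic and mitochondrial chaperone genes were Dnaja4 at 2.65, Hsph1 at 2.10, Hspb8 at 1.18, St13 at 1.4, Ahsa2 at 1.34 and Hspe1 at 1.96. The ER genes were Hspa5 at 2.19, Sdf2l1 at 1.93, Manf at 1.57, Creld2 at 1.42 and Herpud1 at 2.92. The stress transcription factors and their targets were Atf3 at 5.57, Ddit3 at 2.32, Xbp1 at 1.52, Fgf21 at 4.52 and Gdf15 at 4.88. Clu was at 3.18, P2rx7 at 4.48, Dnahc10 at 4.37, Cdh3 at 5.72, Mt2 at 2.64, Mt1 at 1.70, Ccl2 at 1.53 and Cxcl10 at 4.66.

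On the smaller side the immediate-early and growth-factor genes were Egr1 at -3.81, Egr3 at -3.78, Egr2 at -3.18, Nr4a1 at -1.72, Rgs16 at -1.84, Npas4 at -1.79, Mycn at -3.50, Thbs1 at -2.04 and Cyr61 at -1.47. The others were Cd300lb at -2.64, Depdc1a at -2.03, Tbc1d9 at -1.77, Vamp2 at -1.61, Grik3 at -2.08 and 4922505G16Rik at -3.57.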

How the results depend on the processing

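Beside 180 genes higher and 99 lower, the count was 609 and 349 with the edgeR exact test, 715 and 541 with the DESeq2 Wald test, 998 and 773 in the shared fit of 6 groups, 720 and 500 with the GC offset, 2184 and 2160 with 1 surrogate variable, and 209 and 275 with total counts. Against the samples labelled Tu 45 min, an alternative chosen after seeing the data, it was 518 and 432. Leaving out single samples gave 0 to 303 higher and 0 to 87 lower. Another filter or none, DESeq2 size factors, TMM within the 6 samples and a 2-fold minimum stayed within 1.5 times. The greater and smaller changes from 45 to 135 min, 235 and 153, became 453 and 546 with the DESeq2 Wald test, 406 and 329 in the shared fit, 427 and 552 with the GC offset, 1547 and 1284 with 1 surrogate variable, and 343 and 234 with total counts. They ran from 87 to 387 and from 29 to 350 without single samples. Causes were not tested. With the replicate number as a block no gene was called in either direction (1231 at an unadjusted p under 0.05), and the GC offset with the replicate block also left 0 and 0 (2152 at that p). For the change from 45 to 135 min the block gave 83 and 36, and the GC offset with the block 286 and 304. Deviations from the group means of HS 135 min and Tu 135 min samples with the same number correlated at -0.83, -0.76 and 0.36. With different numbers the range was -0.71 to 0.83. Deviations also went with transcript GC, as given above, so these correlations cannot decide whether the numbers pair the samples. Signs turned for genes named by rule that were not called: Dpagt1 (0.17 with 1 surrogate variable, -0.50 to 0.096 without single samples), Psmb3 (-0.23 to 0.0089 without single samples), Hsf1 (-0.26 to 0.17 without single samples, 0.23 against the samples labelled Tu 45 min), and, against the latter, Ddit3 (-0.59), Xbp1 (-0.0064) and Mycn (1.36). No called gene named by rule changed sign in these alternatives.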

Other observations

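A group of genes with reads under heat shock was left out of every test because at least 1 of the 18 samples had 0 reads. Of these, 14 averaged at least 50 reads in HS 135 min or Tu 135 min, and they were looked at after their values were seen. Unc45b, a chaperone of muscle myosin, had 148, 300 and 300 reads in HS 135 min replicates 1 to 3 and 2, 3 and 0 reads in the Tu 135 min samples. Cpn1, a carboxypeptidase N subunit, had 62, 227 and 233 reads against 0, 1 and 0, and Psca, a cell surface antigen, had 85, 229 and 394 reads against 6, 5 and 1. The transcription factor gene Foxn1 had 45, 94 and 102 reads against 7, 0 and 1. Replicate 1 was again the lowest heat shock sample for these 4. C3ar1, the receptor of complement C3a, had 40, 11 and 27 reads against 12, 103 and 37, with overlapping groups. The counts of the 14 genes are not scaled for library size, the HS 135 min libraries were the deeper, and none was tested. Since the 14 were picked by their reads in these 2 groups, their direction is not a result.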
